A study of Homo sapiens with 6 samples.

Results

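The AFF (AF4/FMR2) family consists of 4 human genes, AFF1, AFF2, AFF3 and AFF4, and all 4 were found by symbol among the 56832 rows of the count table. AFF2 was picked because its mRNA rose in the SMARCA3 knockout, so the knockout and wild-type values of AFF2 are given as a description without a test. AFF1, AFF3 and AFF4 came in as its relatives. All 4 passed the filter on low counts, with 18061 genes tested in all.

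AFF proteins are large, mostly unstructured scaffolds of the super elongation complex and of complexes like it. The super elongation complex holds the kinase P-TEFb (CDK9 with a cyclin T), an ELL elongation factor and the chromatin reader ENL or AF9. It releases RNA polymerase II from its pause near gene starts. AFF1 (AF4) is known as a fusion partner of KMT2A in acute leukaemia, AFF2 (FMR2) as the X-linked gene silenced at the FRAXE fragile site in intellectual disability, and AFF3 (LAF4) as a nuclear protein of lymphoid and neural tissue. AFF4 is the scaffold most studied in the complex of cultured cells.

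The cells were HEK293T, a transformed line from human embryonic kidney that grows attached and makes SV40 large T antigen, grown in DMEM with serum. Poly(A)-selected RNA was sequenced from 3 libraries of wild-type cells and 3 libraries labelled SMARCA3 knockout. HLTF encodes SMARCA3, an SNF2-family helicase and ubiquitin ligase. The method of knockout, the number of clones and the origin of the replicates are not given by the labels, so each p-value reflects the scatter of these libraries alone, which may be technical. Libraries held 33125811 to 41593655 counts, with the wild-type libraries the deeper ones. HLTF mRNA itself was present in all 6 libraries. It measured 191 to 215 CPM (counts per 1000000 scaled counts) in the wild-type and 139.9 to 149 CPM in the knockout. These counts cannot tell whether the protein was lost. The log2 change of HLTF was -0.48. Its 10 nearest tested genes on chromosome 3 had a median log2 change of -0.72, and 9 of them were lower. HLTF thus fell by less than that median, and the part of this shared shift in its fall was not tested. Of the embryonic kidney markers, PAX2, LHX1, EYA1 and SALL1 were detected and PAX8 was near 0. PAX2 and SALL1 were higher in the knockout and EYA1 was lower. Blood markers summed to at most 1.20 CPM in any library, with CD3E and HBB at 0, and fibroblast markers to 6.41 to 8.57 CPM, nearly all of it COL1A1, with DCN at 0.

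The 4 genes lie on 4 chromosomes and differ in span more than in exon length. AFF1 (ENSG00000172493.20) lies on chromosome 4 between 86935002 and 87141054, AFF2 (ENSG00000155966.13) on chromosome X between 148500619 and 149000663, AFF3 (ENSG00000144218.18) on chromosome 2 between 99545419 and 100142739, and AFF4 (ENSG00000072364.12) on chromosome 5 between 132875379 and 132963634 (hg38). AFF1 and AFF2 are on the plus strand, AFF3 and AFF4 on the minus strand. The spans are 206 kb, 500.0 kb, 597 kb and 88.3 kb, and the merged exons 10.7 kb, 14.0 kb, 12.7 kb and 11.3 kb, in the order AFF1 to AFF4. Exons of AFF3 overlap the antisense gene AC092667.1 by 770 bases, and without a stated strand setting their reads may not have been told apart. Exons of the other 3 overlap no other annotated gene.

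The coding sequences of the members are far enough apart for reads of 50 bases to tell them apart. In an alignment of all 4, pairs matched at 48.9% of bases (AFF1 and AFF2) to 54.5% (AFF2 and AFF3). None of the 50-base stretches of the longest transcript of a member occurred in another member, and 8 of 13697 stretches of AFF2, 25 of 9800 of AFF3, and 0 of AFF1 and AFF4 occurred in a transcript of any other gene, on either strand. The closest 50-base coding stretches within an exon, for 2 pairs, are printed here because they are where reads of one member could most nearly pass for another; both pairs differ at 8 bases, in capitals. The AFF2 stretch (chrX:148987440-148987489, plus strand, exon 20 of 21) and the AFF3 stretch (chr2:99554379-99554428, minus strand, exon 24 of 25) come first, then the AFF1 stretch (chr4:87108244-87108293, plus strand, exon 11 of 21) and the AFF4 stretch (chr5:132898252-132898301, minus strand, exon 10 of 21).
AFF2: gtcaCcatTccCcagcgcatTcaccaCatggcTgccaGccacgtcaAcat
AFF3: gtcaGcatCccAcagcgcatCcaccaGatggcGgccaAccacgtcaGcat
AFF1: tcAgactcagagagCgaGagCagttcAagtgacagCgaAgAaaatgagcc
AFF4: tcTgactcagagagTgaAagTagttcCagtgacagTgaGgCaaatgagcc

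The windows before annotated starts differed between members in CG pairs. Of 250 bases upstream of an annotated start, the AFF4 window holds 26 CG pairs and the 2 AFF1 windows 32 and 31, against a median of 11 over 35116 such windows, of which 93.9% hold at least 1. The 2 AFF3 windows hold 2 and 4. The AFF1 window with 31 and the AFF3 window with 4 belong to starts 72.3 kb and 37.2 kb inside their genes. The 1 AFF2 window holds 1, but it belongs to a start 218.5 kb inside the gene, and the sequence before the 5′ end of AFF2 was not examined. The motif GGGCGG, read on both strands, occurs 3 times in the AFF4 window and 3 times in 1 AFF1 window, in none of the AFF2 and AFF3 windows, and in 42.6% of all windows; it can overlap a CG pair, since it contains one. The windows are from RefSeq (GRCh38.p14). Counts per gene do not show which start was used. Printed 5′ to 3′ with CG in capitals are the AFF4 window (chr5:132963635-132963884, minus strand), the AFF3 window at the 5′ end of the gene (chr2:100142591-100142840, minus strand) and the internal AFF2 window (chrX:148718841-148719090, plus strand), to show a CG-rich and a CG-poor 5′ end beside the 1 AFF2 window examined.
AFF4: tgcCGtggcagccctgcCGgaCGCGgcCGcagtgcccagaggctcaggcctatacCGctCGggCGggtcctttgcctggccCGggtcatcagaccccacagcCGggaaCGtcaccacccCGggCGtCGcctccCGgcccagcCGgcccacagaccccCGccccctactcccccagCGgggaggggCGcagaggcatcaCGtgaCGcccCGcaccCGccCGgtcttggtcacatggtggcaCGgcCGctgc
AFF3: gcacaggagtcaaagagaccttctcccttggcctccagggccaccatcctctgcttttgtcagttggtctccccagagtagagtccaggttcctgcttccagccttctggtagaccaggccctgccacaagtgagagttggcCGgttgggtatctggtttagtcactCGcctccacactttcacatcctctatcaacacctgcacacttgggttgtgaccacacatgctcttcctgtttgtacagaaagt
AFF2: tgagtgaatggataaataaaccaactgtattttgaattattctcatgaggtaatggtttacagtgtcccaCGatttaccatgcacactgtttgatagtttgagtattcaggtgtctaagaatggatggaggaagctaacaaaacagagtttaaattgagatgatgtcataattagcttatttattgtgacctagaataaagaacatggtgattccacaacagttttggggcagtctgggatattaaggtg

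AFF2 was low in wild-type cells and well expressed in the knockout. It had 55, 49 and 51 counts in wild-type replicates 1 to 3 and 673, 756 and 765 counts in knockout replicates 1 to 3. Scaled for depth these were 1.33, 1.26 and 1.34 CPM in wild-type and 19.6, 20.5 and 23.2 CPM in the knockout. Each knockout library stood far above each wild-type library, the lowest knockout value being 14.7 times the highest wild-type value. The means were 1.31 ± 0.0432 CPM and 21.1 ± 1.86 CPM (SD, n = 3 per group), a log2 change of 4.01 (SE 0.11), or 16.1-fold. By size of rise AFF2 ranked 26 among the 18061 tested genes. With AFF2 itself counted, 0.144% of tested genes were called higher with a log2 fold change at least that large. A floor of 3 counts is 0.0723 to 0.0909 CPM in these libraries, so the wild-type level, though low, was above the limit of detection in each of them, counting error only. In such bulk libraries, more cells with AFF2 mRNA and more of it per cell cannot be told apart.

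AFF3, which like AFF2 forms a super elongation-like complex, rose as well, by far less. It measured 17.3, 15.5 and 16.5 CPM in the wild-type libraries and 21.4, 22.1 and 20.6 CPM in the knockout libraries. The ranges did not overlap, and the lowest knockout value was 1.19 times the highest wild-type value. The means were 16.5 ± 0.918 and 21.4 ± 0.752 CPM (n = 3, SD), a log2 change of 0.38 (SE 0.07, 1.30-fold, edgeR adjusted p = 0.00164). Among all tested genes 31.8% were called, 14.0% higher and 17.7% lower, and 53.9% of the genes called higher rose by less than AFF3. The exact permutation test of AFF3 gave p = 0.1 (two-sided), the smallest that 3 against 3 libraries allow. In 21.2% of tested genes the knockout libraries all lay above the wild-type libraries, as they did for AFF2 and AFF3.

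AFF4 and AFF1, the main scaffolds of the family in these cells, were not called. AFF4 measured 174, 164 and 159 CPM in the wild-type libraries and 153, 161 and 159.8 CPM in the knockout libraries, so that the ranges overlapped. Its means were 166 ± 7.71 and 158 ± 4.36 CPM (n = 3, SD), a log2 change of -0.07 with a 95% interval of -0.17 to 0.03 (edgeR adjusted p = 0.245). AFF1 measured 63.1, 63.9 and 60.0 CPM in wild-type and 61.4, 63.1 and 61.2 CPM in the knockout, with the knockout values inside the wild-type range. Its means were 62.3 ± 2.10 and 61.9 ± 1.07 CPM (n = 3, SD), a log2 change of -0.01 with a 95% interval of -0.11 to 0.09 (edgeR adjusted p = 0.901). The upper bounds of both intervals, 0.03 and 0.09, lie below the lower bound of 0.23 for AFF3. Exact permutation tests gave p = 0.3 for AFF4 and p = 0.9 for AFF1. Of the 3 members other than AFF2, 1 was thus called, AFF3. Over all tested genes 31.8% were called, so this count is near that share.

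**Figure D1:**
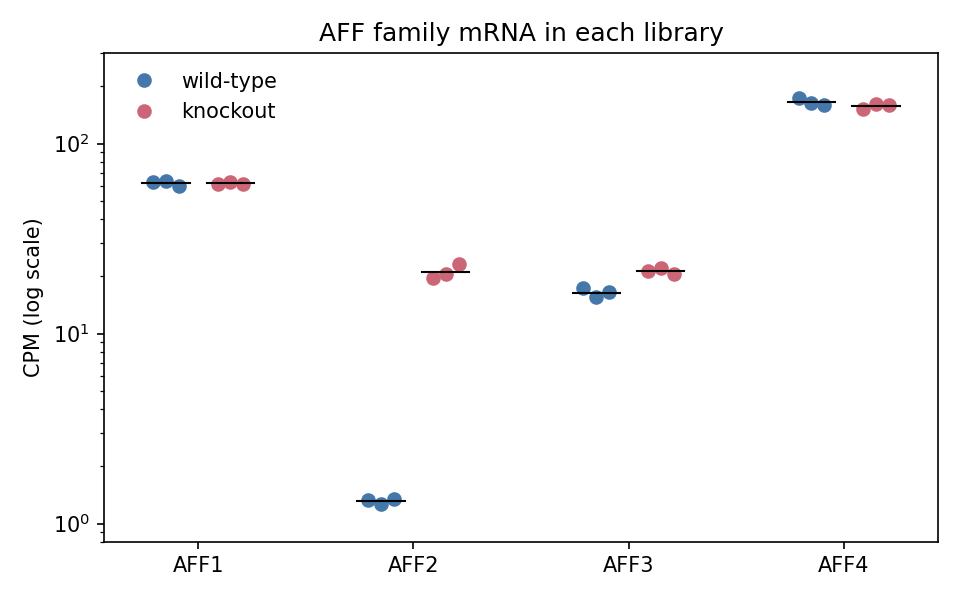
Level of each AFF member in CPM on a log axis, with 1 point per library, wild-type in blue and knockout in red, and a black line at the mean of 3 libraries. AFF2 moves from 1.26 to 1.34 CPM in wild-type to 19.6 to 23.2 CPM in the knockout, AFF3 shifts slightly upward, and the points of AFF1 and AFF4 overlap between groups.

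To compare members with each other, CPM was divided by kilobases of merged exon. In wild-type cells the order was AFF4 (14.7 ± 0.682 CPM per kb), AFF1 (5.81 ± 0.196), AFF3 (1.29 ± 0.0720) and AFF2 (0.0933 ± 0.00308; n = 3, SD for all), and no neighbours in this order overlapped. AFF4 was 2.53 times AFF1, AFF1 4.49 times AFF3 and AFF3 13.8 times AFF2. In the knockout the order was the same, but AFF3 (1.68 ± 0.0590) and AFF2 (1.51 ± 0.133 CPM per kb) were 1.11-fold apart and their ranges overlapped. The 2 scarce members were thus not separable in the knockout by their spread, whereas AFF4 remained 2.42 times AFF1 and AFF1 3.44 times AFF3. With the longest transcript in place of merged exons, AFF3 lay at 2.17 ± 0.0763 and AFF2 at 1.54 ± 0.135 CPM per kb in the knockout, without overlap, so their closeness depends on the length used.

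As a share of the summed family level, AFF2 went from 0.416%, 0.412% and 0.453% in wild-type replicates 1 to 3 to 6.27%, 6.29% and 7.16% in knockout replicates 1 to 3. AFF3 held 5.91% ± 0.295 in wild-type and 7.33% ± 0.280 in the knockout, AFF1 26.6% ± 0.755 and 25.2% ± 0.477, and AFF4 67.1% ± 0.591 and 60.9% ± 0.301 (n = 3, SD). AFF4 and AFF1 together thus made up most of the family mRNA in every library. The summed level was 21.9 ± 0.849 CPM per kb in wild-type and 22.9 ± 0.531 in the knockout (n = 3, SD). The individual sums, 22.8, 21.8 and 21.1 against 22.3, 23.3 and 23.1 CPM per kb, overlapped between groups. These shares are of mRNA and say nothing of protein.

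**Figure D2:**
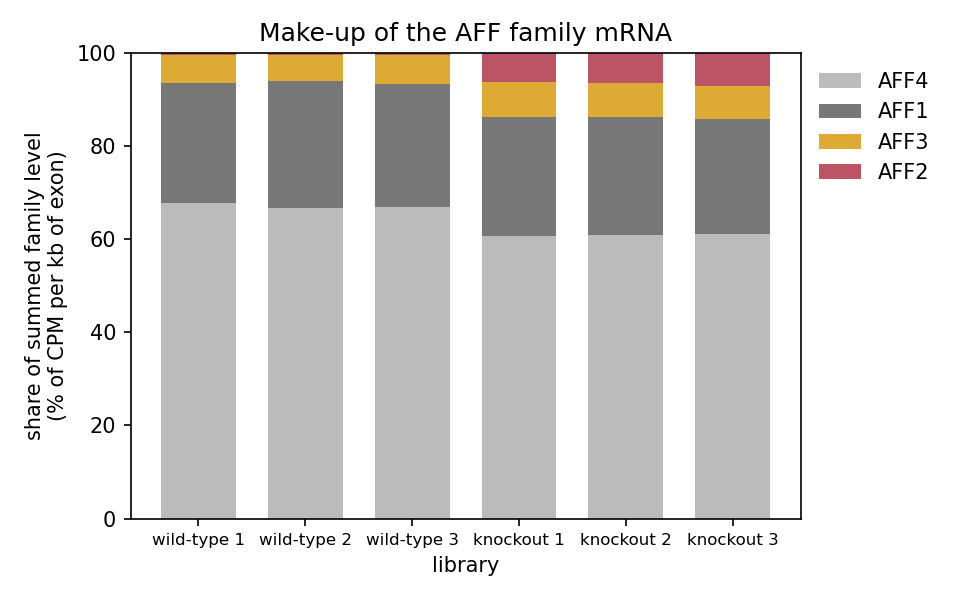
Stacked bars of each member's share, in percent, of the summed family level in CPM per kilobase of merged exon, 1 bar per library. AFF4 (light grey) and AFF1 (dark grey) fill most of every bar, and the AFF2 segment at the top goes from 0.412% to 0.453% in the wild-type bars to 6.27% to 7.16% in the knockout bars.

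Of the genes beside AFF2, only MAMLD1 was called higher. Its 10 nearest tested genes, 5 on each side, had a log2 change of -0.16 at the median, with 1 higher, 4 lower and 5 not called, beside 14.0% higher and 17.7% lower over all tested genes. FMR1, the fragile X gene and the nearest before it at 549 kb, measured 170.4 ± 6.08 CPM in wild-type and 158 ± 2.84 in the knockout (n = 3, SD), a log2 change of -0.11 (edgeR adjusted p = 0.0709). IDS, a lysosomal sulfatase gene and the nearest after it at 476 kb, fell from 53.5 ± 3.24 to 45.9 ± 1.32 CPM (n = 3, SD; edgeR adjusted p = 0.0126), a call lost without knockout replicate 1 (adjusted p = 0.0676) or 3 (0.0578). MAMLD1, 1361 kb after AFF2, rose from 6.55 ± 0.541 to 13.0 ± 0.792 CPM (n = 3, SD), which is a log2 change of 0.99 (edgeR adjusted p = 1.21e-05). The 10 neighbours of AFF2 spread over 9.73 Mb, against 1.19 to 3.22 Mb for the other members. LDOC1 and CDR1 lie 7323 kb and 7716 kb before it. FMR1-AS1, L29074.1 and CDR1 averaged only 0.355, 0.216 and 0.713 CPM in wild-type, low levels at which few changes can be called. The neighbour values are thus a coarse view of the surroundings of AFF2. On chromosome X as a whole 63 of 491 positioned genes (12.8%) were higher and 169 (34.4%) lower.

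None of the genes beside AFF3 was called higher. Of its 10 neighbours 0 were higher, 4 lower and 6 not called, with a median of -0.01, and on chromosome 2 as a whole 8.40% were higher and 26.1% lower. LYG2, a lysozyme-like gene 290.1 kb before it, had a log2 change of 0.51, above that of AFF3, with each knockout library above the wild-type libraries but without a call (edgeR adjusted p = 0.0542). REV1, a translesion polymerase gene 55.4 kb before it, had a log2 change of 0.00, and LONRF2, a RING-domain gene 131 kb after it, fell from 78.7 ± 0.982 to 33.8 ± 0.754 CPM (n = 3, SD), a log2 change of -1.22 (edgeR adjusted p = 2.25e-08). Around AFF1 0 of 10 were higher and 2 lower (median -0.15), and around AFF4 0 were higher and 4 lower (median -0.13). On chromosome 4 as a whole 6.70% were higher and 35.6% lower, and on chromosome 5 7.89% and 24.2%. The nearest to AFF1 were the phosphatase gene PTPN13 (log2 fold change 0.03) and KLHL8 (-0.19). The nearest to AFF4 were the antimicrobial peptide gene LEAP2 (0.18) and ZCCHC10 (-0.12), and none of these 4 genes was called.

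**Figure D3:**
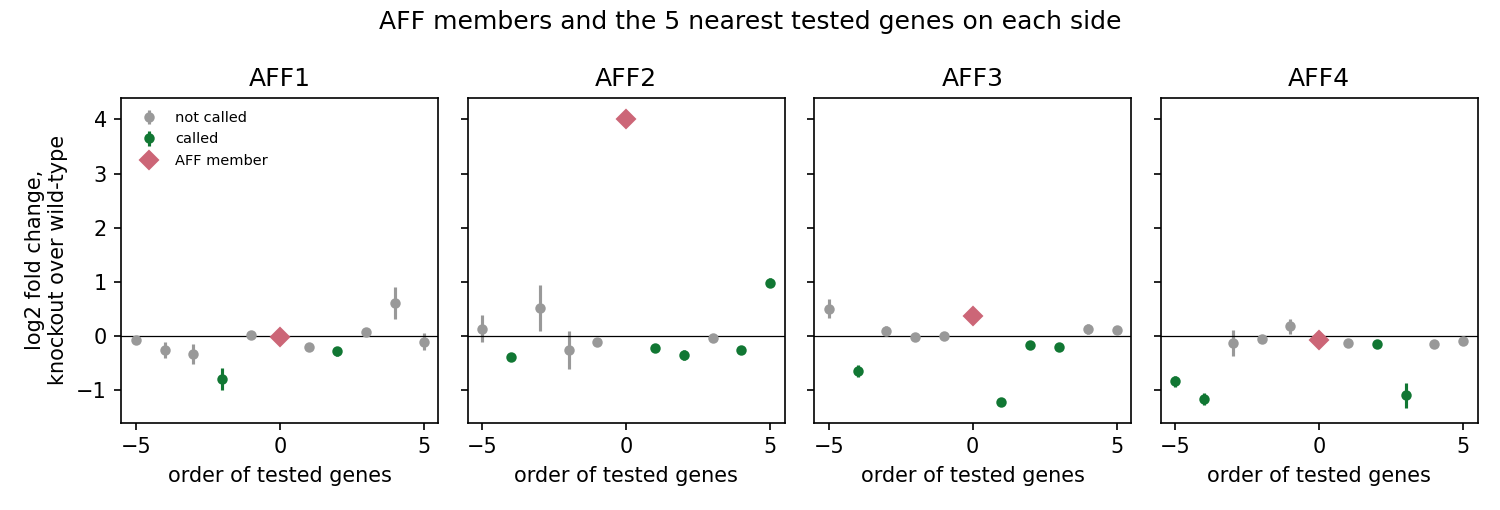
Log2 fold change of each AFF member (red diamond) and of the 5 nearest tested genes on each side in chromosome order, with bars of 1 SE; green points passed the test and grey points did not. AFF2 at 4.01 stands above its neighbours, which lie between -0.38 and 0.99, while AFF1 at -0.01 and AFF4 at -0.07 lie near 0.

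Most genes of the AFF partners were not called. Over 48 elongation factor genes in 8 groups, 47 were tested, of which 6 rose, 7 fell and 34 were not called. These are 12.8% higher and 14.9% lower, near the 14.0% and 17.7% over all tested genes. The median log2 change was 0.05, against 0.00 over all genes. Without knockout replicate 1, 3 of the list were lower, while over all genes the lower calls went from 3205 to 2309.

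Of the ELL, EAF and YEATS partners in the list, 6 were tested and ELL2 was the 1 called, which is 16.7% lower against 17.7% over all tested genes. ELL2, an elongation factor held in the complex, measured 32.6 ± 1.20 CPM in wild-type and fell to 24.7 ± 0.851 (n = 3, SD), a log2 change of -0.40 (SE 0.06, edgeR adjusted p = 0.000423), beside a median of -0.19 over its 10 neighbours on chromosome 5. ELL had a log2 change of 0.22, the ELL-associated EAF1 of 0.03, and the YEATS readers MLLT1 (ENL) and MLLT3 (AF9) of 0.16 and 0.12, with none called. ELL3 was too low to test.

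Of P-TEFb and its regulators, 3 of 8 (37.5%) rose and 0 fell, against 14.0% higher and 17.7% lower over all tested genes. The kinase CDK9 was at 36.9 ± 2.48 CPM in wild-type and 33.0 ± 0.523 in the knockout (n = 3, SD; edgeR adjusted p = 0.0680). Its main cyclin CCNT1 had a log2 change of 0.06 and was not called, while CCNT2, the alternative cyclin, rose from 96.0 ± 4.31 to 109 ± 1.34 CPM (n = 3, SD; edgeR adjusted p = 0.010). HEXIM1, which holds P-TEFb inactive on the 7SK RNA, rose by 0.29 on the log2 scale, beside a neighbour median of 0.41 with 7 of 10 neighbours higher. Without knockout replicate 1 HEXIM1 was not called (edgeR adjusted p = 0.0556).

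The widest changes of the list were in the DOT1L histone methyltransferase complex, which shares AF9 and ENL with AFF proteins. DOT1L, the catalytic subunit, rose from 52.9 ± 7.38 to 84.4 ± 8.57 CPM (n = 3, SD), a log2 change of 0.68 (SE 0.10, edgeR adjusted p = 0.000418), beside a neighbour median of 0.27 on chromosome 19. MLLT10 (AF10), its cofactor, fell from 62.7 ± 3.28 to 44.0 ± 2.01 CPM (n = 3, SD), a log2 change of -0.51 (SE 0.06, edgeR adjusted p = 6.11e-05). Its 10 neighbours on chromosome 10 had a median of -0.59, and 9 of them were lower. The part of these shared shifts in the 2 results was not tested. MLLT6 (AF17) had a log2 change of 0.05 and was not called.

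KMT2A, the H3K4 methyltransferase whose leukaemic fusions often join AFF1, rose by 0.22 on the log2 scale (SE 0.04, edgeR adjusted p = 0.00286). PSIP1 (LEDGF), which tethers KMT2A to chromatin, had a log2 change of -0.20, a call lost without knockout replicate 1 (edgeR adjusted p = 0.0553). Of 6 pausing factors in NELF and DSIF, NELFCD rose by 0.11 on the log2 scale (16.7% higher, against 14.0% over all tested genes). Of 6 PAF1 complex genes, WDR61 fell by 0.12 (16.7% lower, against 17.7% over all tested genes). In the little elongation complex 0 of 3 were called, against 31.8% over all tested genes. Of 12 other elongation factors 3 were lower and 0 higher, against 17.7% lower and 14.0% higher over all tested genes. CDK12, a kinase of long-gene transcription, fell by 0.19, the histone chaperone SUPT6H by 0.12 and the elongin subunit ELOC by 0.18. NELFCD, WDR61 and SUPT6H lost their calls in 9, 12 and 9 of 15 alternative analyses, among them each single knockout library left out, and ELOC lost it without knockout replicate 1 (edgeR adjusted p = 0.0750).

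**Figure D4:**
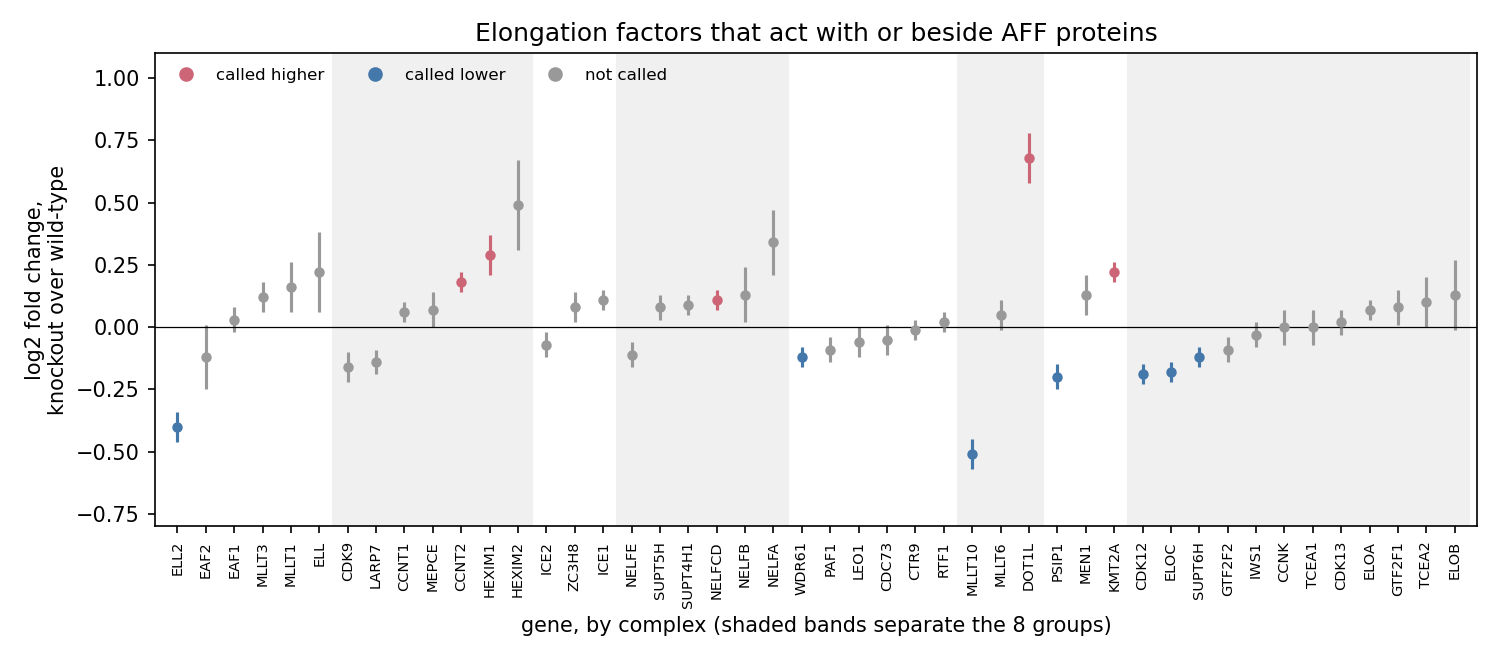
Log2 fold change of 46 of the 47 tested elongation factor genes in 8 groups separated by shading, with bars of 1 SE; red points were called higher, blue lower and grey were not called. Most points lie near 0, with DOT1L at 0.68 and MLLT10 at -0.51 at the extremes of the called genes.

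SIAH2, of the SIAH ubiquitin ligases that mark ELL2 and AFF proteins for degradation, fell from 21.6 ± 0.702 to 12.8 ± 0.766 CPM (n = 3, SD), a log2 change of -0.76 (SE 0.07, edgeR adjusted p = 1.54e-05). It lies on chromosome 3, as HLTF does, and all 10 of its neighbours were lower with a median of -0.66. SIAH1 was not called (0.12). Of the FMR1 relatives, FXR2, an RNA-binding paralog of FMR1, fell from 103 ± 2.05 to 71.9 ± 1.38 CPM (n = 3, SD; edgeR adjusted p = 6.53e-06) beside a neighbour median of -0.04, and FMR1 and FXR1 were not called.

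Rapidly induced genes, whose transcription leans on pause release, gave a mixed picture. Of 14 genes 13 were tested, with 4 higher (30.8%, against 14.0% over all tested genes), 1 lower (7.69%, against 17.7%) and 8 not called, and a median log2 change of 0.12. MYC rose from 214 ± 1.97 to 249.5 ± 7.49 CPM (n = 3, SD; edgeR adjusted p = 0.00107) and the stress factor ATF3 from 52.4 ± 1.14 to 64.4 ± 1.28 CPM (edgeR adjusted p = 0.000652). FOSB rose by 0.35 and HSPA1B by 0.42 on the log2 scale, while the phosphatase DUSP1 fell by 0.30. HSPA1B is a near-identical copy of HSPA1A, so its counts are uncertain, with an adjusted p of up to 0.119 over the alternatives. FOSB and DUSP1 lost their calls without knockout replicate 2 (edgeR adjusted p = 0.0508 and 0.0510).

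The genes whose 6-library pattern was nearest to that of AFF2 were found by the Euclidean distance between log2 CPM centred on each gene, over 14185 genes averaging 1 CPM or more. Being chosen for that pattern, they are described without a test. The nearest was AL133493.2, a clone-named gene, which went from 10.2 ± 0.396 to 144 ± 1.92 CPM (n = 3, SD; distance 0.294). FGF13, an intracellular FGF homologue that like AFF2 lies on chromosome X, went from 0.497 ± 0.0527 to 10.6 ± 0.252 CPM (distance 0.444). FABP6, an ileal bile acid binding protein gene, the zinc finger gene ZNF556 and STMN2, a microtubule regulator of neurons, followed at distances of 0.607 to 0.627, with log2 fold changes of 4.84, 4.16 and 4.45. In wild-type they averaged 0.143, 0.117 and 0.805 CPM, with FABP6 and ZNF556 near the floor of 3 counts. Like FGF13, they reached an average of 1 CPM only through the knockout libraries. Of the 10 neighbours of FGF13, 0 were called higher and 5 lower, with a median of -0.15. The shares over all tested genes were 14.0% higher and 17.7% lower, and on chromosome X 12.8% and 34.4%. Of 10 neighbours each, FABP6, ZNF556 and STMN2 had 1, 0 and 3 higher and 3, 1 and 1 lower.

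Nearest to AFF3 were FOSB, the chromatin reader MBTD1 (57.4 ± 3.24 to 74.8 ± 1.13 CPM; SD, n = 3) and the poly(A) polymerase gene FAM46C, at distances of 0.0693 to 0.0772. Nearest to AFF4 were TRIP12, TXLNG and ARPP19, each with a log2 change of -0.08, and nearest to AFF1 were R3HDM1, POU2F1 and POLR2D, at -0.02 to -0.01. With 6 libraries in 2 groups, small distances are common, and likeness says nothing of shared control.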

How the data were processed

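The authors deposited raw counts, whole-number reads per gene symbol with 1 column per library. The submitters' processing notes name hg38 and, without role or order, HTSeq 0.9.1, STAR 2.4, Trim Galore, Picard and DESeq2; the strand setting is not given in the sources used here.

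The test was edgeR 4.0.16 (R 4.3.3): filterByExpr by group, TMM (factors 0.9973 to 1.005), quasi-likelihood F test with no covariate, two-sided p adjusted by Benjamini-Hochberg over 18061 genes, threshold 0.05. CPM are per 1000000 TMM-scaled counts of tested genes, and 95% intervals use the fit's SE and degrees of freedom. Replicate pairs gave a chi-square of 3.60 to 15.3 per degree of freedom, above sampling noise. The intervals take in the scatter between libraries, while the floor of 3 counts covers counting error only. Positions and exon lengths are from GENCODE on the same build, matching 77.8% of tested symbols, so a neighbour is the nearest positioned tested gene. Coding sequences were aligned with MAFFT 7.526. RefSeq gave 6 promoter windows covering all 4 members.

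Members, lists and rules were chosen with earlier results of these data known. Genes named were the members, HLTF, called list members, main AFF and P-TEFb partners, the nearest neighbours and those of most similar pattern (5 for AFF2, 3 for others). MAMLD1, ELL3, MLLT6, SIAH1, FXR1, the markers and the span classes were named after their values were seen. A gene of the lists and a marker are not reported here. The procedure was tested on simulated counts. Alternatives were RLE factors, library size only, 2 other filters, DESeq2 1.42.0, limma-voom (limma 3.58.1), robust dispersion, the replicate block, each library left out and a threshold of 0.01.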

Additional observations from a re-analysis of the deposited data

How the results depend on the processing

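AFF2 kept its log2 fold change between 3.94 and 4.07 over 14 alternatives, and AFF3 was called higher in all 15, between 0.34 and 0.43 with adjusted p of 0.000114 to 0.0140. AFF4 stayed uncalled and below 0 in all 15. AFF1 stayed uncalled, and its value changed sign to 0.000834 with RLE factors, 0.000288 with at least 1 CPM in at least 3 libraries and 0.000842 with DESeq2; leaving out each library gave -0.0306 to 0.0170. At a threshold of 0.01, 3477 genes were called, 1421 higher and 2056 lower, and of the elongation factors 3 were higher and 4 lower. Leaving out each library gave 3 to 8 lower elongation factors, and 2309 to 3275 lower genes among all tested. Of 30 other single genes, 19 kept direction and call in all alternatives run, and no gene reversed. Replicate numbers did not pair the libraries (correlation of deviations -0.66, -0.17 and -0.18 for same-numbered libraries). Differently numbered libraries gave -0.56 to 0.61, with wild-type 3 and knockout 1 at 0.61 and wild-type 1 and knockout 2 at 0.52. No factor for this likeness across numbers was fitted. With the replicate block AFF3 had a log2 change of 0.378 (adjusted p = 0.0140). Depth limits AFF2 most, with 49 to 55 counts per wild-type library. The cause of each change was not tested.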

Other observations

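AFF2 and AFF3 are long genes. Of 219 tested protein-coding genes spanning at least 500 kb, 41 (18.7%) were higher in the knockout and 90 (41.1%) were lower, with a median log2 change of -0.17. The 41 include AFF3 and also AFF2, whose place among them follows from how it was picked. Among 5357 genes under 25 kb, 703 (13.1%) were higher and 1014 (18.9%) lower, with a median of -0.00. Between them, genes of 25 to 100 kb, 100 to 250 kb and 250 to 500 kb had 15.4%, 19.6% and 18.8% higher. In the same classes 21.5%, 22.4% and 31.4% were lower. AFF2, picked for its rise, spans 500.0 kb and so lies at the edge of its class. The span classes were set after results were seen, genes are not independent replicates, and no test of the classes was made.

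Markers of cell identity moved beside the rise of AFF2. Of the embryonic kidney markers of the line itself, 5 were tested, 2 were higher (40.0%, against 14.0% over all tested genes) and 1 was lower (17.7% over all). EYA1 fell from 13.5 ± 1.60 to 3.71 ± 0.218 CPM (n = 3, SD), a log2 change of -1.87 (edgeR adjusted p = 4.63e-07). PAX2 rose from 4.52 ± 0.666 to 10.8 ± 0.0636 CPM (n = 3, SD), a log2 change of 1.25 (edgeR adjusted p = 7.24e-06), and SALL1 rose by 0.24 on the log2 scale. Of the simple epithelial markers, KRT8, KRT18, EPCAM and CDH1 were all lower (4 of 4, against 17.7% over all tested genes), summing to 40.7 to 45.6 CPM in wild-type libraries and 20.5 to 21.8 CPM in knockout libraries. Of 6 neuronal markers tested, STMN2 was higher (16.7%), NEFM lower (16.7%) and 4 were not called, and 3 of the 7 listed were under 1 CPM in every library. NEFM went from 34.8 ± 2.85 to 0.0501 ± 0.0633 CPM (n = 3, SD), a log2 change of -9.40. Its knockout libraries held 1, 0 and 4 counts, around the floor of 3 counts, so the size of this fall is uncertain. STMN2 went from 0.805 ± 0.166 to 17.6 ± 1.25 CPM (n = 3, SD), a log2 change of 4.45. The 7 summed to 161 to 167 CPM in wild-type libraries and 142 to 144 CPM in knockout libraries. The part of these shifts in the AFF results was not tested.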
